A study of Mus musculus with 106 samples.

Results

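The erythroid precursor genes are Alas2, Klf1, Gata1, Epor, Hemgn, Slc4a1 and Ahsp, 7 genes of the red cell lineage that were taken by symbol from the gene count tables of this series. Of these, 6 were matched among the 24842 symbols of the 4 tables, and Ahsp, the alpha globin chaperone, is not analysed here. The series holds bulk RNA-seq of 106 libraries in 31 groups of tissue and temperature. Male C57BL/6J mice, 8 weeks old at the start, were brought to 10 °C through 5 days of 18 °C and 5 days of 14 °C, and stayed there for 2 weeks. Others spent 4 weeks at 34 °C, and both experiments had their own mice at 22 °C. From the cold experiment 11 tissues are used here and from the warm experiment 5, which gives 16 comparisons of temperature, and warm ingSAT and pgVAT are not analysed here.

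Bone marrow, read in the cold experiment, has 6 libraries at 22 °C and 6 at 10 °C, each from a single mouse. Spleen has 3 libraries at 22 °C and 3 at 10 °C, each a pool of 2 mice. The other tissues were interscapular brown fat (iBAT), inguinal subcutaneous fat (ingSAT), perigonadal visceral fat (pgVAT), liver, ileum, quadriceps, brain, hypothalamus and spinal cord, at 10 °C and 22 °C, and iBAT, liver, ileum, quadriceps and brain at 34 °C and 22 °C. Spinal cord libraries come from single mice, 5 at each temperature, and the remaining libraries pool 2 mice. For warm iBAT the sources differ: the study's methods text gives pools, while its sampling summary lists single mice for all but 1 library. All animals were wild type males. The labels give an age of 11 weeks in the cold experiment and of 12 weeks in the warm one and in quadriceps. The mice of the cold experiment and those of the warm experiment came from different breeders, each with controls of the same source. Marrow was flushed from the bone and all its cells were lysed together, so that levels are those of mixed cells. In such samples fewer cells of a type and less RNA per cell cannot be told apart.

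Red cells are made from progenitors in the marrow, and in the mouse also in the red pulp of the spleen, a site known for stress erythropoiesis. Erythropoietin binds its receptor on committed progenitors and keeps them alive. The factors GATA1 and KLF1 then switch on the genes of globin chains, heme synthesis and the red cell membrane. Each of the 6 genes stands for a step: Epor encodes the erythropoietin receptor, Gata1 and Klf1 encode these factors, Hemgn encodes hemogen, a nuclear protein of blood precursors, Alas2 encodes the erythroid enzyme that starts heme synthesis, and Slc4a1 encodes band 3, the anion exchanger of the red cell membrane.

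In the GENCODE M21 annotation of GRCm38, the assembly also called mm10, Alas2 lies at chrX:150547375-150570638 on the plus strand, and Klf1 at chr8:84901928-84905291, also on the plus strand. On the minus strand, Gata1 lies at chrX:7959260-7978071, Epor at chr9:21958897-21963506, Hemgn at chr4:46393989-46413506 and Slc4a1 at chr11:102348824-102366203. Alas2 overlaps Apex2 and Mir3620 on the opposite strand, and whether the reads were counted by strand is not given in the sources used here. RefSeq promoters on GRCm38.p6 were at hand for 5 of the members. The motif GATAA, read on both strands (its reverse complement is TTATC), is the core that GATA factors bind. Within 250 bases before the RefSeq start it was found in 4 of the 5 promoters, and in 22.6% of all 32851 promoters of that length. That start need not be the GENCODE end given above. The windows of Hemgn and Gata1 lie inside the GENCODE spans of their genes, and those of Alas2 and Klf1 reach into theirs. The motif and a rise in marrow did not always go together. Of the 4 genes with the motif, 3 rose and Klf1 did not pass the test, while Gata1, without the motif, also rose. The 4 promoters that hold the motif are shown, and the capitals mark it. They span chrX:150547167-150547416 for Alas2, chr8:84901732-84901981 for Klf1, chr9:21963577-21963826 for Epor and chr4:46404184-46404433 for Hemgn, each written from 5′ to 3′ on the strand of its gene.
Alas2: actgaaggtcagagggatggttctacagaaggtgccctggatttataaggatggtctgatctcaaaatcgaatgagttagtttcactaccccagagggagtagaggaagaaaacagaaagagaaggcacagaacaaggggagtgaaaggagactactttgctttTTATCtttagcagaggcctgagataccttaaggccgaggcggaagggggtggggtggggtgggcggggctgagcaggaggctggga
Klf1: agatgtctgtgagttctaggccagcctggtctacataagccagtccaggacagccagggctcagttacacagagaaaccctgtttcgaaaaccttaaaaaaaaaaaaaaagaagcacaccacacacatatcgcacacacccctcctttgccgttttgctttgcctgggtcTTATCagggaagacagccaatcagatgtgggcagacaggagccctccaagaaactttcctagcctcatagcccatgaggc
Epor: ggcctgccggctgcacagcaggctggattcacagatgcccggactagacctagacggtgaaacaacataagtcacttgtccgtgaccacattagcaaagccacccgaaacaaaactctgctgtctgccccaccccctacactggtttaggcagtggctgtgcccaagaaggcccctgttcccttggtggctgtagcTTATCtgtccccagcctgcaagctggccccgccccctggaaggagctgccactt
Hemgn: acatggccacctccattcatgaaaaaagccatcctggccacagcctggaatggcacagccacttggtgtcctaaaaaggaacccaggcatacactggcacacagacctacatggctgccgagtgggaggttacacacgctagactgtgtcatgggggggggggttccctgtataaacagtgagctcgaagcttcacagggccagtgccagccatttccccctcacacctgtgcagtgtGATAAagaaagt
The first base of the motif lay at −86 in Alas2, −80 in Klf1, −54 in Epor and −12 in Hemgn, counted back from the first base of the transcript. Gata1 had neither GATAA nor TTATC in its window, which does hold GATAG. The motif CACCC, or on the other strand GGGTG, the core of the sites that KLF factors bind, was in 4 of the 5, all but Hemgn, and in 52.0% of all promoters. A match of so few letters is a description of the sequence and shows no binding.

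Library totals ran from 4262403 to 62880248 counts (median 21585677) over the series. In marrow they ran from 15591374 to 17834075 at 22 °C and from 18220849 to 22139577 at 10 °C, and in spleen from 13118205 to 15440156 and from 10078000 to 17243006. Values below are CPM, the reads of a gene relative to the size of its library after TMM scaling. In brain, the 22 °C library of replicate 2 holds 50394 CPM of Alb, the hepatocyte albumin gene, against 1.47 to 6.94 in the other 5 libraries of the cold experiment, so it stands apart from its label, and the brain tests at 10 °C are given with and without it. In spleen, genes of the pancreas acinar cells summed to 17.3 to 2054 CPM at 22 °C (median 215) and 17.3 to 4181 at 10 °C (median 1152). The spread within each temperature was wide, and 3 libraries at each are too few to tell whether it follows temperature.

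In bone marrow, 5 of the 6 genes rose at 10 °C: Alas2, Gata1, Epor, Hemgn and Slc4a1. The folds were modest, between 1.22 and 1.33, and the sixth gene, Klf1, was 1.15-fold higher without passing the test. The test was edgeR's quasi-likelihood F-test on all 12525 genes with an average log2 CPM above 0, and a gene was called at a Benjamini-Hochberg adjusted p under 0.05. By this rule 7.33% of all genes were higher and 11.6% were lower in marrow. The members' median log2 fold change was 0.29, against 0.01 over all genes tested. None of the 6 reached the study's own limits, a fold above 1.5 and a p up to 0.05 before adjustment, which 0.647% of the genes passed upwards.

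Alas2 ran from 2512 to 3628 CPM (median 2965) at 22 °C and from 3443 to 4699 (median 3777) at 10 °C. The groups overlapped by the highest library at 22 °C, and the mean went from 2987 ± 433 to 3972 ± 506 CPM (SD, n = 6 each). Its log2 fold change of 0.41 (SE 0.10, edgeR adjusted p = 0.0125) was the largest among the members. Slc4a1 ran from 4732 to 5629 CPM (median 5508) at 22 °C and from 6043 to 7442 (median 6476) at 10 °C. All libraries at 10 °C were above all at 22 °C, with means of 5413 ± 339 and 6603 ± 480 CPM and a log2 fold change of 0.29 (SE 0.06, edgeR adjusted p = 0.00773).

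Epor ran from 123 to 146 CPM (median 141) at 22 °C and from 153 to 195 (median 160) at 10 °C. These groups did not overlap either, and the log2 fold change was 0.29 (SE 0.07, edgeR adjusted p = 0.00951). Hemgn ran from 652 to 819 CPM (median 799) at 22 °C and from 848 to 1039 (median 974) at 10 °C, again without overlap. Its log2 fold change was 0.31 (SE 0.06, edgeR adjusted p = 0.00559). Across all genes tested in marrow, 2.67% had every library at 10 °C above every library at 22 °C, as these 3 members had.

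The factors moved less evenly. Gata1 ran from 164 to 192 CPM (median 171) at 22 °C and from 190 to 240 (median 213) at 10 °C, so that only the edges of the groups met. The mean went from 174 ± 11.3 to 212 ± 19.1 CPM, a log2 fold change of 0.29 (SE 0.06, edgeR adjusted p = 0.00666). Klf1 ran from 218 to 329 CPM (median 277) at 22 °C and from 269 to 343 (median 324) at 10 °C, and the groups overlapped over much of this range. Its log2 fold change was 0.20 (SE 0.08, edgeR adjusted p = 0.10). Without the 22 °C library of replicate 6, which is the highest of its group, Klf1 had an adjusted p of 0.0362. Leaving out any other library kept it above the threshold, and the 5 called genes stayed called without any single library.

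**Figure D1:**
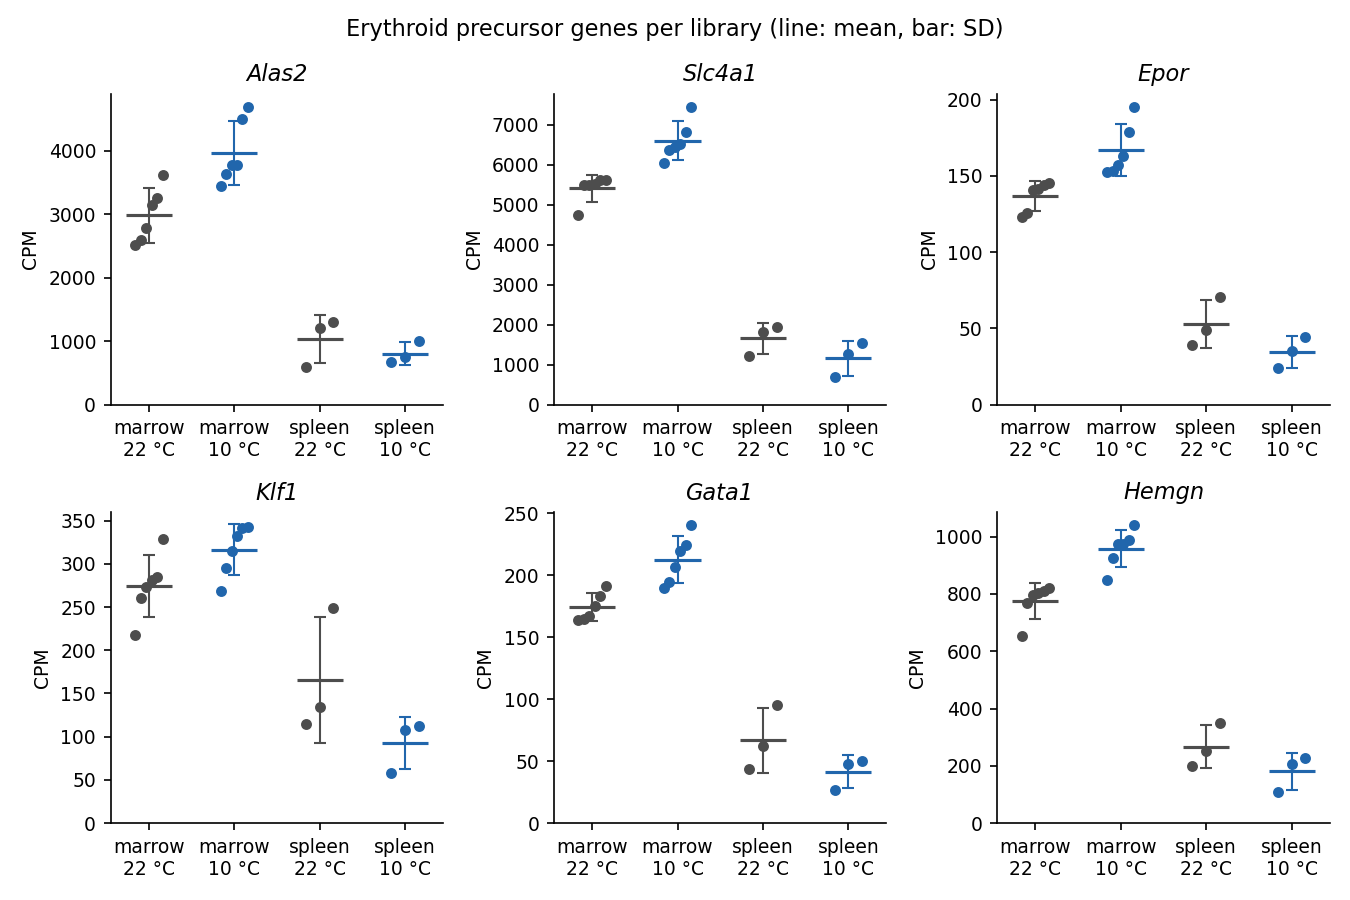
CPM of each erythroid precursor gene in bone marrow (6 libraries at each temperature) and spleen (3 at each), 1 point a library, with the mean as a line and the SD as a bar, and the axis starting at 0. In marrow the points at 10 °C lie above those at 22 °C without overlap for Slc4a1, Epor and Hemgn, while in spleen the means at 10 °C are the lower ones for all 6 genes and the groups overlap for all but Klf1.

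In spleen none of the 6 genes passed the test at an adjusted p under 0.05, by edgeR's quasi-likelihood test, its exact test or DESeq2, and all 6 had lower means at 10 °C. Only 0.0779% of the 14117 genes tested in spleen were called in either direction. At an unadjusted p under 0.05 the count was 2 of 6, Klf1 and Epor, against 1411 of all 14117 genes tested. Both also passed the study's limits, which 2.04% of all genes passed downwards. The members' median log2 fold change was −0.59, with a median of 0.00 over all genes.

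Klf1 stood at 114, 135 and 249 CPM in the 3 libraries at 22 °C and at 58.3, 112 and 108 CPM at 10 °C. All 3 cold libraries were below the controls, a pattern that 8.46% of the genes tested shared, and no other member showed it. The log2 fold change was −0.84 (SE 0.33, edgeR adjusted p = 0.485). Without the 22 °C library of replicate 3, which held the highest Klf1 level, it was −0.42. Epor stood at 39.1, 48.9 and 70.2 CPM at 22 °C and at 23.8, 35.2 and 44.5 CPM at 10 °C, so that the groups overlapped, with a log2 fold change of −0.62 (SE 0.26, adjusted p = 0.490).

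Gata1 stood at 43.5, 62.3 and 95.03 CPM at 22 °C and at 26.7, 47.7 and 50.5 CPM at 10 °C, a log2 fold change of −0.69 (SE 0.31, edgeR adjusted p = 0.503). Hemgn, the nuclear protein gene, stood at 199.98, 253 and 349 CPM and then at 107, 207 and 227 CPM (−0.57, SE 0.29). For both genes the highest control library was replicate 3 and the groups overlapped. Slc4a1 stood at 1227, 1810 and 1951 CPM at 22 °C and at 684, 1260 and 1545 CPM at 10 °C (−0.52, SE 0.28). Alas2 stood at 596, 1301 and 1202 CPM at 22 °C and at 670, 746 and 1003 CPM at 10 °C, where the lowest library of all was a control (−0.36, SE 0.27). With any single spleen library left out all 6 values remained negative, from −1.03 for Klf1 to −0.15 for Alas2.

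The difference between the tissues was tested as an interaction in a joint fit of marrow and spleen over 13151 genes. The fold change was larger in marrow than in spleen for all 6 members, and the difference passed for 4 of them, while 4.47% of all genes passed in this direction. For Klf1 the difference in log2 fold change was 1.04 (edgeR adjusted p = 0.0432), for Gata1 0.98 (adjusted p = 0.0385), for Epor 0.91 (adjusted p = 0.0372) and for Hemgn 0.87 (adjusted p = 0.0454). Slc4a1 had a difference of 0.80 (adjusted p = 0.0629) and Alas2 one of 0.77 (adjusted p = 0.0906), neither of which passed. These calls rest on few libraries: with 1 library left out, between 0 and 6 members passed, and in 10 of 18 such fits the number was 0. Those fits left out marrow replicates 1, 2 or 5 at 22 °C, marrow replicates 1, 2, 5 or 6 at 10 °C, spleen replicates 1 or 2 at 10 °C, or spleen replicate 3 at 22 °C. The joint fit also lets single mice in marrow and pools in spleen share 1 estimate of spread, and kit and sequencing site differ between the tissues but not within either contrast.

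**Figure D2:**
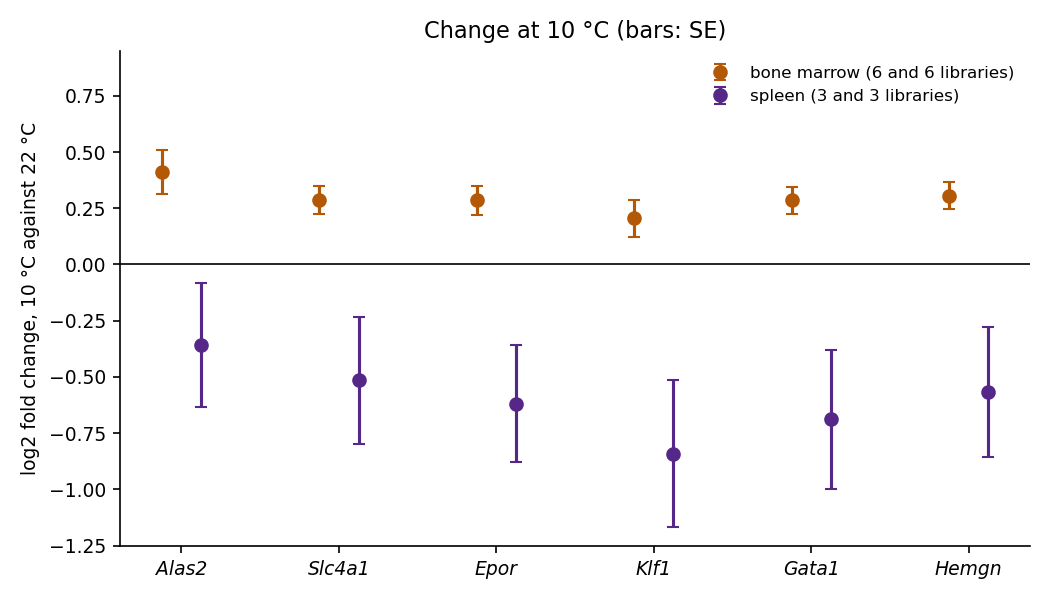
Log2 fold change at 10 °C against 22 °C for each member in bone marrow and spleen, with the standard error of the fit as a bar and a line at 0. The marrow values lie between 0.20 and 0.41 and the spleen values between −0.84 and −0.36, with standard errors of 0.06 to 0.10 in marrow and 0.26 to 0.33 in spleen.

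The wider red cell program was read from a list of 74 genes of erythropoiesis that does not hold the 7 members. In marrow 67 of its genes were tested, of which 46 rose and 1 fell at 10 °C, with a median log2 fold change of 0.24. The rises were spread over several roles of the list. Of the adult beta globins, Hbb-bs rose from 18730 ± 2951 to 25865 ± 3341 CPM (log2 fold change 0.47, SE 0.11, edgeR adjusted p = 0.0110). The alpha globins Hba-a1 and Hba-a2 were listed at 0 in every marrow library and Hbb-bt was not matched in the marrow table, so that the remaining adult globins have no marrow value. The embryonic globins were too low to test, with Hbb-y at 0.331 CPM at 22 °C and 0.588 CPM at 10 °C.

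Of 10 genes of heme synthesis and its mitochondrial import, 9 rose and Ppox did not pass. The largest rise was that of Slc25a37, which encodes mitoferrin, the iron importer of erythroid mitochondria (2028 to 2491 CPM, log2 fold change 0.30, edgeR adjusted p = 0.00555). Of 19 genes of the membrane, its skeleton and blood groups, 17 rose, led by Rhd, which encodes a protein of the Rh complex (465 to 593 CPM, log2 fold change 0.35, adjusted p = 0.00424). Of 14 genes of late maturation 11 rose, led by Bpgm, the enzyme that makes bisphosphoglycerate (1106 to 1490 CPM, log2 fold change 0.43, adjusted p = 0.0261).

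Of 11 transcription factors and cofactors 7 rose, with Tfdp2, a partner of E2F factors, first among them (525 to 657 CPM, log2 fold change 0.32, edgeR adjusted p = 0.00555). Ldb1, Nfe2, Cbfa2t3 and Bcl11a did not pass. The genes of earlier progenitors gave no call: Myb had a log2 fold change of 0.08 (adjusted p = 0.356), Kit one of −0.03 and Gata2 one of −0.07. Of 9 tested genes around erythropoietin signalling, Bcl2l1, which encodes the survival protein BCL-XL, rose from 264 to 327 CPM (log2 fold change 0.31, adjusted p = 0.00672). Sh2b3, which encodes LNK, a brake on cytokine receptor signalling, fell from 84.0 to 74.1 CPM (log2 fold change −0.18, adjusted p = 0.0468). The other 7, Jak2, Stat5a, Stat5b, Cish, Pim1, Erfe and Tfrc, did not pass, and Epo itself had 0 counts in marrow and spleen.

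Spleen gave the opposite sign without a call. Of the 70 list genes tested there, 65 had a negative log2 fold change, with a median of −0.44. None passed an adjusted p under 0.05 by edgeR's quasi-likelihood test, which 0.0779% of all genes passed. An unadjusted p under 0.05 was found for 16 of the list, and for 1411 of all 14117 genes. By the study's limits 11 of the list were lower, against 2.04% of all genes. Hbb-bs stood at 13719 ± 5440 CPM at 22 °C and 10445 ± 2430 CPM at 10 °C (log2 fold change −0.39, adjusted p = 0.634). The log2 fold change was −0.56 for Hbb-bt, −0.45 for Hba-a1 and −0.49 for Hba-a2, and each of these 3 groups overlapped. Among the other roles, the most abundant genes gave −0.26 for Slc25a37, −0.23 for Tfdp2, −0.24 for Epb41 of the membrane skeleton, −0.61 for Car2, the carbonic anhydrase of red cells, and −0.43 for Tfrc, the transferrin receptor. Myb stood at 76.7 ± 16.4 and then 59.5 ± 1.63 CPM (−0.37, adjusted p = 0.485). In the joint fit, without the alpha globins at 0 in marrow, the log2 fold change was higher in marrow than in spleen for 61 of 67 list genes. That count was not taken over all genes. Of the 67, 22 passed in this direction, as 4.47% of all genes did, and none passed the other way, against 197 of all 13151 genes. With 1 library left out, 10 of 18 such fits called 0 members, and list genes were not counted in them.

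Genes of other blood cells moved as well, and their part in the results for the red cell genes was not tested. In marrow, 13 of 15 neutrophil genes fell (median log2 fold change −0.40), and their summed level ran from 46938 to 68267 CPM at 22 °C and from 43239 to 46166 CPM at 10 °C without overlap. Also in marrow, 10 of 11 B cell genes rose (median 0.42), with sums of 732 to 1018 CPM at 22 °C and 1073 to 1219 CPM at 10 °C. Of 9 macrophage genes Vcam1 and Cd163 rose, the latter 1.63-fold, and the list had a median of 0.31, close to the members' 0.29, with sums of 779 to 1190 CPM at 22 °C and 1070 to 1311 CPM at 10 °C. Of 6 genes of mast cells, basophils and eosinophils Hdc fell, with a list median of −0.36 and sums of 2903 to 6202 CPM and then 2443 to 2922 CPM. None of 5 T cell genes passed (median −0.04). None of the 10 megakaryocyte genes passed (median 0.14, all 10 positive), with sums of 588 to 2329 CPM at 22 °C and 1273 to 1874 CPM at 10 °C. These cells also use Gata1, and their part in its result was not tested. Of 10 cell cycle genes only Ube2c rose (median 0.09). No marker of these 7 lists was at 0. With TMM scaling left out, or with the globin genes removed first, the same 5 members were called in marrow. Neither setting tests the part of other cells. Over all settings run the log2 fold changes of these 5 were 0.28 to 0.43. In 1 of these settings, with the replicate number as a block, Slc4a1 was not called (edgeR adjusted p = 0.0617).

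In spleen, 8 of 15 neutrophil genes fell, and these are 8 of only 11 genes called in that tissue. Their summed level went from 496 to 922 CPM at 22 °C down to 174 to 198 CPM at 10 °C, with a list median of −2.48. Megakaryocyte genes summed to 296 to 401 CPM at 22 °C and 212 to 267 CPM at 10 °C (median −0.60, none of 10 called). Cell cycle genes summed to 2255 to 3741 CPM and then to 1606 to 2492 CPM (median −0.57, none of 10 called). The medians of these last 2 lists are close to the −0.59 of the erythroid members. Genes of mast cells, basophils and eosinophils summed to 34.2 to 84.4 CPM at 22 °C and 21.1 to 22.01 CPM at 10 °C (median −1.42, none of 5 called). No gene passed among macrophage genes (9 tested, median −0.14), B cell genes (9, median 0.20), T cell genes (5, median 0.05) or pancreas acinar genes (7, median 1.22).

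**Figure D3:**
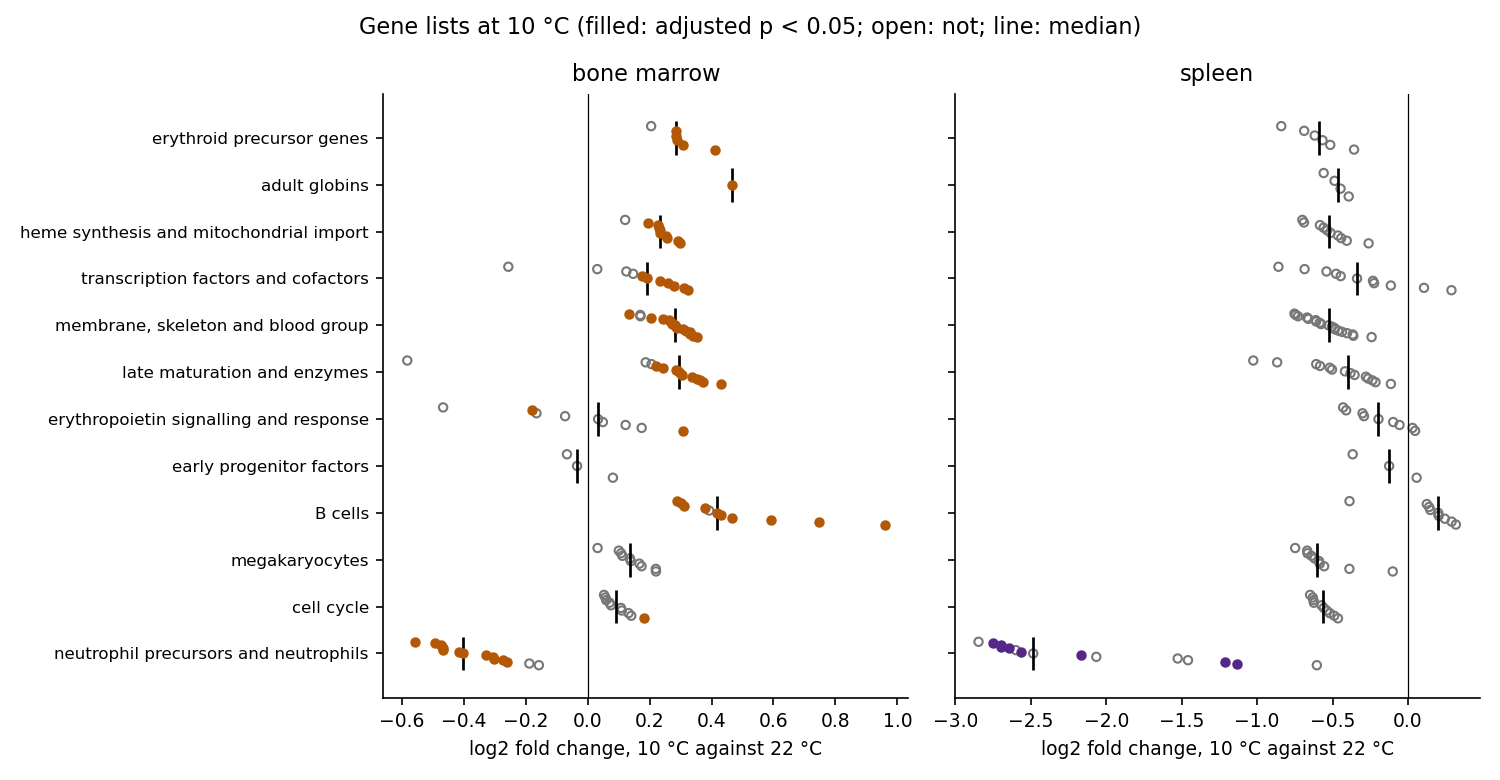
Log2 fold changes at 10 °C against 22 °C of each tested gene of the erythroid lists and 4 other cell lists in bone marrow (left) and spleen (right), filled where the adjusted p is under 0.05, with a line at each list's median and separate axes for the tissues. In marrow the members and the globin, heme, transcription factor, membrane and late maturation groups sit mostly right of 0, and the neutrophil genes left of it. In spleen most genes of each list plotted sit left of 0, except those of the B cell list.

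The members rose and fell together between libraries. Over the 12 marrow libraries, Pearson's r of log2 CPM ran from 0.43 to 0.96 (median 0.84) over the 15 pairs of members. After the mean of each temperature was taken out, it ran from 0.0020 for Alas2 and Klf1 to 0.88 for Hemgn and Slc4a1, with a median of 0.62. Over the 6 spleen libraries the pairs gave 0.65 to 0.98 (median 0.95), and 0.59 to 0.97 within temperatures. These values share libraries and scaling and are a description only.

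The genes whose marrow pattern was most like the mean of the members were Tspan33 (r = 0.99 over 12 libraries), Agfg2, Dmtn, Rhd and Ssbp3 (lowest r = 0.98). Tspan33, Dmtn, which encodes the membrane skeleton protein dematin, and Rhd are on the erythroid list. Of the 50 genes most like the members 12 were on it, against 67 of all 12519 genes compared. In spleen the genes most like the members included Cdk6, a kinase of the cell cycle, Ermap, an erythroblast membrane protein, and Mki67, the proliferation marker. Their r was 0.998 or more over 6 libraries. Again 12 of the 50 most alike were on the list, against 70 of all 14111 genes compared.

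Per length of exon, Alas2 and Slc4a1 were the most abundant members in marrow and the receptor and Gata1 the least. At 22 °C the levels were 1243 CPM per kb for Alas2, 1107 for Slc4a1, 309 for Hemgn, 179 for Klf1, 71.5 for Gata1 and 68.8 for Epor. The order was the same at 10 °C, from 1653 CPM per kb for Alas2 to 83.8 for Epor.

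Over the 31 groups, the level of every member was highest in marrow at 10 °C, then in marrow at 22 °C, spleen at 22 °C and spleen at 10 °C. Outside these tissues the members spread by gene. Among the 31 groups in order of their means, 6 of the 30 neighbouring pairs did not overlap for Alas2, 5 for Epor, 4 for Klf1, 3 for Slc4a1, 3 for Hemgn and 2 for Gata1, so that most neighbours do not differ beyond their spread. Levels set across tissues also carry the kit and site of each table.

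Alas2 was next highest in liver, at 120.6 to 172 CPM over the 12 liver libraries. It had means between 38.1 and 52.3 CPM in ingSAT and pgVAT, 17.6 to 35.4 in iBAT, 24.5 to 29.4 in hypothalamus, 11.1 to 22.1 in spinal cord and 6.34 to 12.5 in quadriceps. Ileum was at 6.44 to 7.20 CPM in the cold experiment and at 0.0631 to 0.0714 CPM in the warm one, where a library held 1 to 6 counts. Klf1 also came next in liver, at 2.61 to 6.29 CPM, and stayed under 1.6 CPM elsewhere. Slc4a1 had its highest level outside marrow and spleen in spinal cord at 10 °C, with 13.3 CPM in 1 library. Gata1 did not exceed 1.09 CPM and Hemgn did not exceed 3.12 CPM in any other library. Epor was at 8.68 CPM in iBAT at 34 °C, at 4.84 to 6.52 in brain (2.94 in the 22 °C library of replicate 2, and 5.27 to 6.82 in the others), at 6.0 to 6.41 in ingSAT, at 1.52 to 1.74 in hypothalamus and under 1 CPM on average in liver, quadriceps and ileum.

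**Figure D4:**
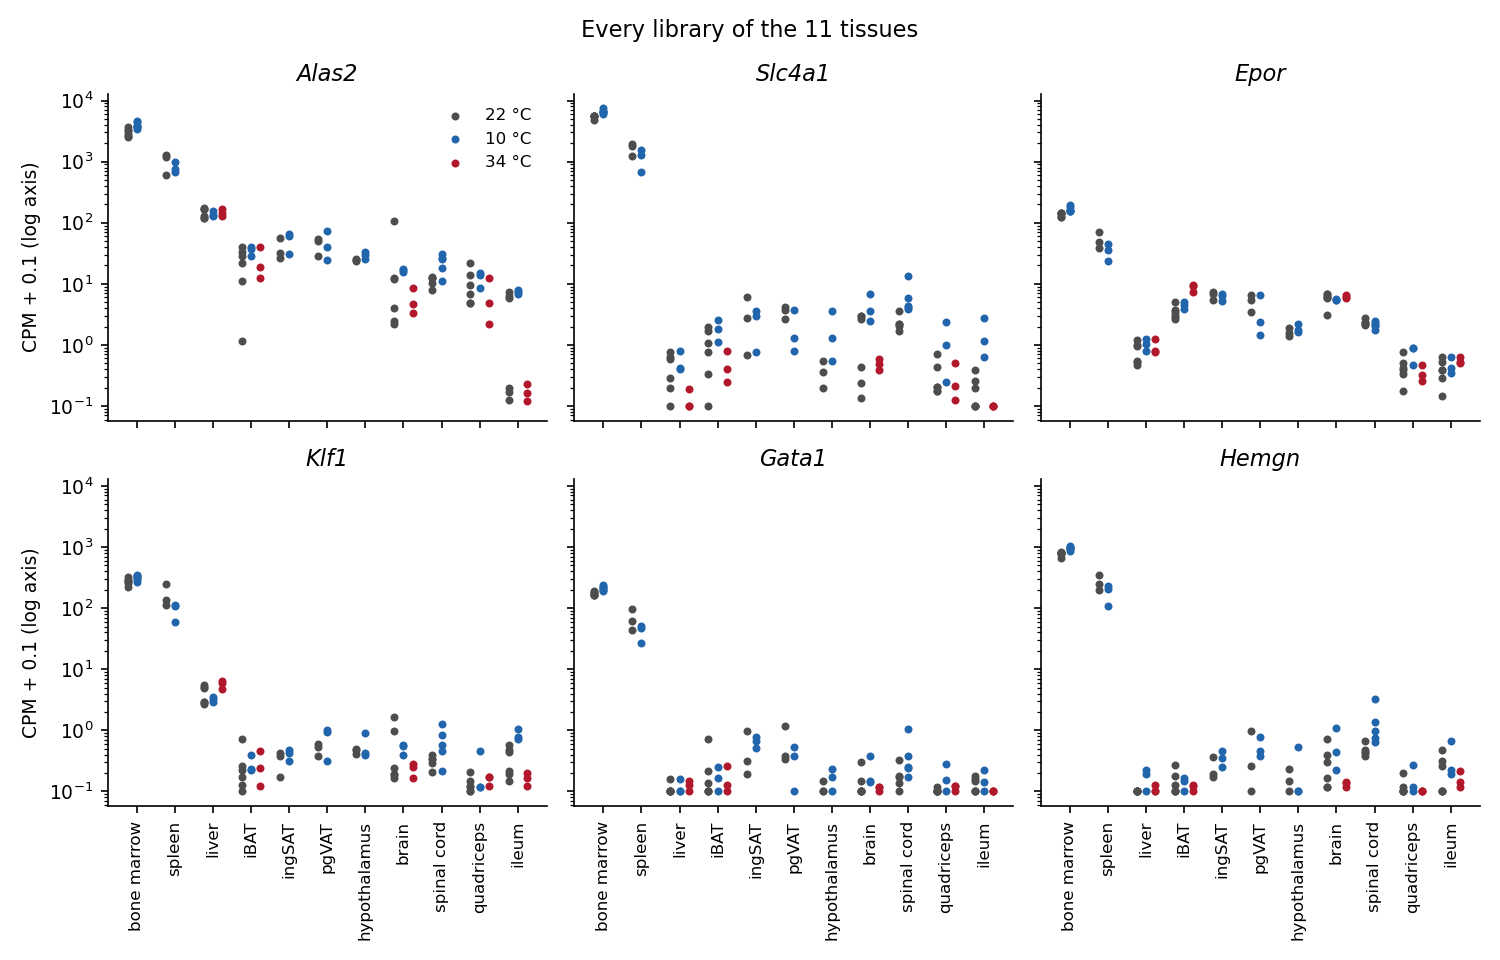
Level of each member in every library of the 11 tissues, as CPM plus 0.1 on a log axis, coloured by temperature. All 6 members are highest in bone marrow and then spleen, Alas2 and Klf1 come next in liver, and 1 brain library at 22 °C lies near the liver level of Alas2.

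In the liver Alas2 was high against beta globin. The ratio of Alas2 to Hbb-bs CPM was 0.150 to 0.171 in marrow, 0.0723 to 0.0827 in spleen and 0.0358 to 0.375 in 69 libraries of other tissues, with the top of that range in hypothalamus, but 1.17 to 15.5 in liver. Warm ileum, with few counts of either gene, and the brain library of replicate 2 at 22 °C (ratio 0.767) were left out of the 69. Gata1, Hemgn and Slc4a1 were at most 0.688 CPM in any liver library and Epor at most 1.16 CPM, while Klf1 was at 2.61 to 6.29 CPM. Apex2, which overlaps Alas2 on the other strand, was at 4.97 to 14.3 CPM in liver and at 58.8 to 64.6 CPM in hypothalamus. Temperature gave no call in liver: at 10 °C Alas2 stood at 157, 130 and 134 CPM, against 126, 121 and 121 at 22 °C, without overlap (log2 fold change 0.19, edgeR adjusted p = 0.277). Among all 12026 genes tested in liver at 10 °C, 1483 were higher and 1419 lower without overlap. At 34 °C the log2 fold change of Alas2 was −0.18 (edgeR adjusted p = 0.578) and that of Klf1 was 0.14 (adjusted p = 0.814).

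Outside marrow and spleen the 14 other comparisons held 29 tests of a member, of which 1 passed an adjusted p under 0.05 and 6 passed the study's limits. The share of all genes called in these comparisons at 10 °C was 11.3% in iBAT, 7.51% in ingSAT, 0.677% in quadriceps, 0.0639% in ileum, 0.00695% in spinal cord and 0% in pgVAT, liver, brain and hypothalamus. At 34 °C it was 28.9% in iBAT, 0.385% in liver and 0% in brain, quadriceps and ileum. By the study's limits the share of all genes at 10 °C was 13.2% in iBAT, 16.3% in ingSAT, 7.94% in pgVAT, 3.32% in quadriceps, 3.28% in liver, 2.72% in brain, 2.71% in ileum, 0.578% in hypothalamus and 0.271% in spinal cord. For the warm tissues these limits gave 0.193% in brain, 1.34% in quadriceps, 2.83% in ileum, 3.38% in liver and 19.4% in iBAT. The 6 member tests past these limits were Epor in iBAT in both experiments, Alas2 and Slc4a1 in spinal cord, Slc4a1 in hypothalamus and Alas2 in brain at 34 °C.

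The call was Epor in iBAT at 34 °C. It stood at 4.93, 3.0 and 3.67 CPM at 22 °C and at 9.62, 7.30 and 9.11 CPM at 34 °C, without overlap. Among all 12331 genes tested there, 2967 were higher and 3029 lower without overlap. The mean of Epor went from 3.87 ± 0.98 to 8.68 ± 1.22 CPM (SD, n = 3 each), a rise of 2.25-fold (log2 fold change 1.17, SE 0.23, edgeR adjusted p = 0.0112). In the same libraries Hbb-bs ran from 29.1 to 715 CPM at 22 °C and from 222 to 641 at 34 °C. Alas2 had a log2 fold change of 0.43 there (SE 0.997, edgeR adjusted p = 0.769). The part of red cell RNA in the Epor result was not tested. Without any single library the fold change of Epor stayed between 1.02 and 1.38 on the log2 scale, with adjusted p values of 0.0137 to 0.0463.

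In iBAT at 10 °C Epor stood at 2.57, 2.74 and 3.34 CPM at 22 °C and at 4.95, 3.74 and 4.39 CPM in the cold. These groups did not overlap and passed the study's limits, but not the adjusted p (log2 fold change 0.59, SE 0.21, edgeR adjusted p = 0.110). Among all 12791 genes tested there, 2101 were higher and 2154 lower without overlap. For Epor, both contrasts in brown fat were thus higher than their own controls, from separate libraries of separate experiments, and the warm one passed. The difference between the 2 contrasts was not tested.

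**Figure D5:**
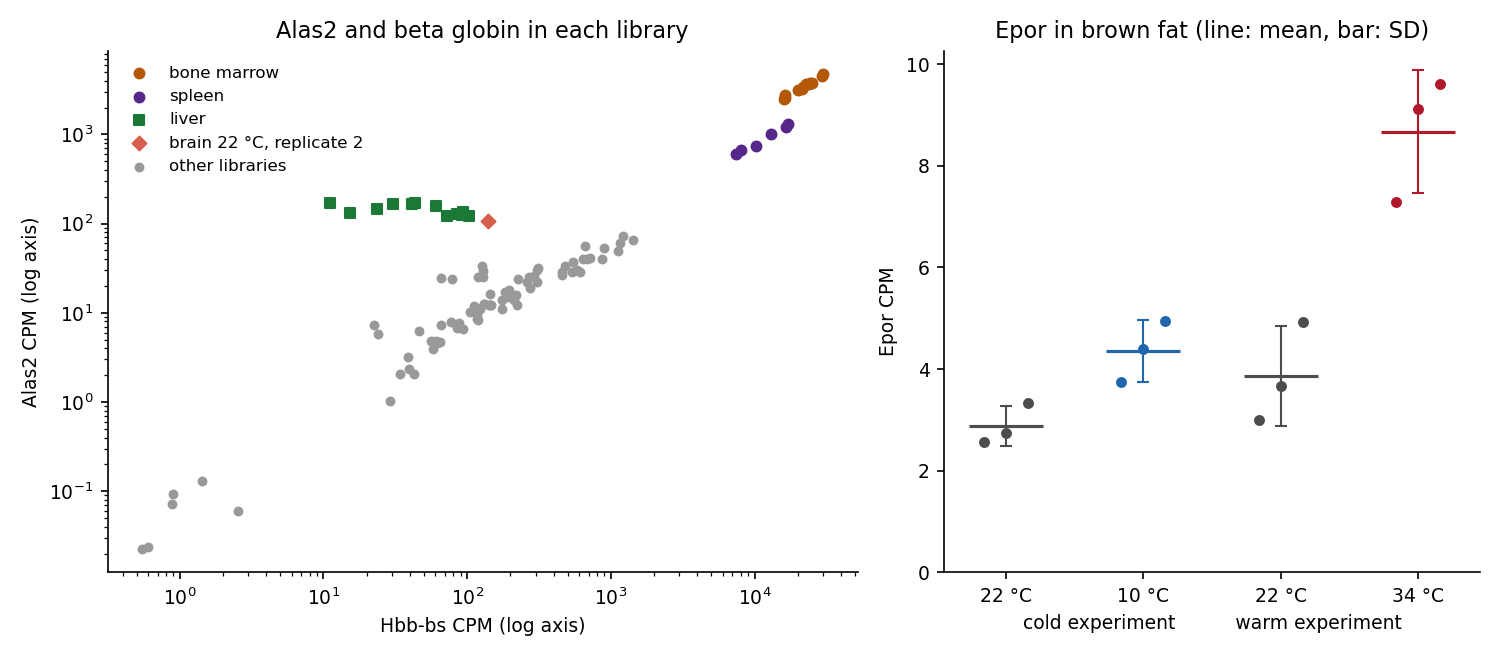
Left, Alas2 against the beta globin Hbb-bs in every library, both as CPM on log axes, with liver (squares) and the brain library of replicate 2 at 22 °C (diamond) above the band of the other libraries. Right, Epor CPM in brown fat for the 4 groups of 3 libraries, with means and SD, where the libraries at 34 °C run from 7.30 to 9.62 CPM and their controls from 3.0 to 4.93.

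In spinal cord Alas2 stood at 12.5, 7.84, 12.7, 10.3 and 12.3 CPM at 22 °C and at 24.98, 18.2, 30.3, 11.0 and 25.98 CPM at 10 °C. All but 1 cold library were above the controls, and the log2 fold change was 0.99 (SE 0.23). It had an adjusted p of 0.777 by edgeR's quasi-likelihood test, but of 0.0378 by edgeR's exact test and 0.0176 by DESeq2. Without the low cold library, replicate 4, the adjusted p of the first test was 0.0429. Slc4a1 stood at 3.49, 1.95, 2.11, 1.61 and 2.14 CPM at 22 °C and at 4.23, 5.67, 13.3, 4.11 and 3.82 CPM at 10 °C, without overlap (log2 fold change 1.46, SE 0.36, edgeR adjusted p = 0.780 and DESeq2 adjusted p = 0.0278). Beta globin lay beside them, with Hbb-bs at 77.1 to 148 CPM at 22 °C and 123 to 304 CPM at 10 °C, and the ratio of Alas2 to Hbb-bs at 0.0835 to 0.102 and 0.0889 to 0.0997. The part of these globin reads in the result was not tested. Among all 14382 genes tested in spinal cord, 115 were, like Slc4a1, higher at 10 °C without overlap and 117 were lower.

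In hypothalamus Slc4a1 stood at 0.262, 0.442 and 0.0946 CPM at 22 °C and at 1.17, 3.47 and 0.446 CPM at 10 °C, without overlap by a narrow margin (log2 fold change 2.75, SE 0.72, edgeR adjusted p = 0.626). It passed the study's limits. Among all 14526 genes tested in hypothalamus, 903 were higher and 830 lower without overlap. Alas2 stood at 24.5, 25.2 and 23.8 CPM and then at 33.5, 29.4 and 25.4 CPM (log2 fold change 0.27, adjusted p = 0.759). In brain, Alas2 stood at 12.4, 107 and 11.8 CPM at 22 °C and at 16.4, 17.3 and 15.7 CPM at 10 °C. Its log2 fold change was −1.40 (adjusted p = 0.706) with the library of replicate 2, and 0.45 (adjusted p = 0.172) without it, so that this library sets the sign. Also in brain at 10 °C, Epor had a log2 fold change of 0.14 (SE 0.29) with that library and −0.11 without it, and Slc4a1 one of 0.58 (SE 0.40) with it and 0.54 without it. Brain at 34 °C gave 3.17, 4.54 and 8.57 CPM of Alas2 against 3.93, 2.33 and 2.08 CPM at 22 °C (log2 fold change 0.96, adjusted p above 0.999).

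The remaining tests gave no call. In ingSAT the log2 fold change at 10 °C was 0.46 for Alas2, −0.09 for Epor and −0.37 for Slc4a1, and in pgVAT it was 0.06, −0.57 and −0.87, with standard errors between 0.22 and 0.85. Leaving out 1 library turned the sign of Epor and Slc4a1 in ingSAT and of Alas2 in pgVAT. Ileum at 10 °C gave 0.16 for Alas2 (SE 0.14), and no member was high enough to test in ileum at 34 °C. In quadriceps Alas2 had a log2 fold change of 0.27 (SE 0.53) at 10 °C and of −0.70 (SE 0.56) at 34 °C, against the same 6 libraries at 22 °C. The labels do not say which of these 6 belong to which experiment. Each contrast may thus hold controls of the other experiment and breeder.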

How the data were processed

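The authors aligned reads to mm10 with STAR and counted them per gene with HTSeq. The paper and the submitters' processing notes name different versions, of which the notes give STAR 2.5.3a and HTSeq 0.6p1. The deposited values are raw counts, whole numbers without scaling. Bone marrow, spinal cord and the warm experiment were made with a stranded kit at one site, where quadriceps was also sequenced, and the other 8 cold tissues with another kit at another. Groups follow titles and treatment labels, since the growth text names 34 °C for every sample.

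Tables were joined by symbol, and every contrast had its own fit (R 4.3.3, edgeR 4.0.16, DESeq2 1.42.0), with TMM scaling, an average log2 CPM above 0, the two-sided quasi-likelihood F-test and Benjamini-Hochberg adjustment over all genes tested, never across comparisons. P-values measure the spread between libraries. CPM come from counted reads without molecular identifiers, and SD is over libraries. Brain was fitted with all its libraries. The quadriceps groups share 1 fit. The code was tested on simulated data.

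The members and gene lists were chosen with earlier results of these data known. Named beyond the members are, per role of the list, the genes with the largest called rise and fall, or else the most abundant, the adult globins, and the 5 genes most alike in each tissue, some of which are not reported here. Names outside this rule, such as genes that did not pass, were chosen after their values were seen. Alternatives were other tests, scalings and filters, each library left out, and a replicate block.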

Additional observations from a re-analysis of the deposited data

Results flagged for a closer look

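Libraries that stood apart from the rest of their group were looked for over 19 pairs of a member and a group of 4 to 10 libraries, with Dixon's test at 95%, and 4 were found, where chance gives about 1 in 20. In bone marrow at 22 °C, replicate 1 was the lowest of its group for Hemgn, at 652 CPM, and for Slc4a1, at 4732 CPM. Both genes kept their call without it. In spinal cord, Slc4a1 was apart in replicate 3 at 10 °C, at 13.3 CPM, and in replicate 1 at 22 °C, at 3.49 CPM.

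The effect of temperature differed between bone marrow and spleen by the interaction test for 4 members, where the log2 fold change in marrow minus that in spleen was 1.04 for Klf1, 0.98 for Gata1, 0.91 for Epor and 0.87 for Hemgn. These differences did not hold with every library left out, as given with the test.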

How the results depend on the processing

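Alternatives were run for the count of members called in each comparison and for each member's fold change in bone marrow and spleen. Of these 421 values 392 stayed as they were, with the same direction and side of the threshold or a similar count. They include counts of 0, such as that of warm ileum, where no member was high enough to test in the main fit. No fold change in marrow or spleen turned its sign. Elsewhere some fold changes that passed no test turned with a library left out: Slc4a1 in iBAT at 10 °C to −0.06 without 10 °C replicate 1; in ingSAT Slc4a1 to 0.53 and Epor to 0.01 without 22 °C replicate 1, and to 0.10 and 0.03 without 10 °C replicates 3 and 2; Alas2 in pgVAT to −0.46 without 10 °C replicate 2 and −0.15 without 22 °C replicate 3; Alas2 in warm iBAT to −0.13 without 22 °C replicate 3 and −0.18 without 34 °C replicate 2; and in brain at 10 °C Alas2 to 0.45 and Epor to −0.11 without 22 °C replicate 2. In bone marrow 5 members were called, 0 by the study's limits, and Slc4a1 kept its log2 fold change of 0.29 in the fit with the replicate block, at an adjusted p of 0.0617. Klf1 in marrow ran from 0.15 to 0.26 over the fits that leave out a library, with a lowest adjusted p of 0.0362. In spleen the count went from 0 to 2 by the study's limits and to 3 with the replicate block, for Gata1 (−0.67, adjusted p = 0.0486), Epor (−0.62, adjusted p = 0.0480) and Slc4a1 (−0.57, adjusted p = 0.0456). The replicate block took the genes called from 2377 to 1339 in marrow and from 11 to 145 in spleen. It changed no other call of a member but that of Slc4a1 in hypothalamus, where 1 was called (adjusted p = 0.0372). By the study's limits 1 member was called in each of iBAT at 10 °C, hypothalamus and brain at 34 °C. In spinal cord the count was 1 by edgeR's exact test, 2 by DESeq2 and 2 by the study's limits, and 0 to 1 with a library left out. Deviations of same-numbered libraries from their group means correlated at −0.19 to 0.09 in marrow and −0.69 to 0.09 in spleen, where 1 of 12 and 0 of 6 libraries were closest to their own number, and the numbers were not taken to pair samples. The interaction of marrow and spleen gave 4 members, and 0 to 6 with a library left out, where 5 of 18 fits kept a similar count. In all, 100 fits left out a library, and the ileum and quadriceps comparisons were not refitted in this way. An alternative chosen after seeing the data, with quadriceps controls limited to columns of the same prefix, gave 0. Genes near 0 CPM outside marrow and spleen are imprecise at this depth.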
